A study of Homo sapiens with 6 samples.

Results

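The plasminogen activator system of the human colorectal cancer line SW480 was followed through 7 genes: the activators PLAU and PLAT, the receptor PLAUR, the activator inhibitor SERPINE2, and the membrane protease ST14 with its inhibitors SPINT1 and SPINT2. They were taken by gene symbol from the 19746 genes of the deposited tables. All 7 were listed, and 6 of them, all but PLAT, reached the mean of 0.5 FPKM over the 6 libraries at which genes were tested, as did 12756 genes in all. The set was chosen by the rise of PLAU with 1 of the hairpins, so every value of PLAU, and every comparison of a member with the shPcyt2-1 libraries, is given as a description without a p. The tests of the other members with shPcyt2-2 against shNT take their estimate of the spread from all 6 libraries, those of shPcyt2-1 included.

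RNA was sequenced from cells of 3 groups with 2 libraries each. The control cells expressed a hairpin without a target (shNT), and the knockdown cells a hairpin against PCYT2, either shPcyt2-1 or shPcyt2-2. PCYT2 is an enzyme of phosphatidylethanolamine synthesis, and the study asked what its loss does to the spread of colorectal cancer cells. The hairpins were delivered by lentivirus and the cells selected with puromycin, all groups come from 1 cell line, and nothing in the labels says whether the 2 libraries of a group came from separate cultures, so the p-values measure only the spread between these libraries. Levels are FPKM (fragments counted per kilobase and scaled for library size), so they may be compared between genes. Tables of this kind carry no read counts, the read depth is not given in the sources used here, and no counting interval is given. The values summed to between 396467 and 402612 per library.

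Urokinase (PLAU) and tissue plasminogen activator (PLAT) are secreted proteases that cut plasminogen into plasmin, a protease that dissolves fibrin and breaks down extracellular matrix. Urokinase is held at the cell surface by its receptor PLAUR, where it works beside plasminogen bound to other surface proteins, and it is blocked by serpins such as SERPINE2. Matriptase (ST14), a membrane serine protease of epithelia, can activate the urokinase precursor and is restrained by the Kunitz inhibitors SPINT1 and SPINT2. In carcinomas the system is known for its part in invasion.

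Of the 7 genes, 4 have a start-site window in the RefSeq promoter table (GRCh38.p14, 250 bases before to 50 after a start): PLAU, PLAUR, SERPINE2 and SPINT1. The windows were searched on both strands for the AP-1 motif TGANTCA, since AP-1 is a known regulator of urokinase and its receptor. A match was found for 2 genes, in 1 window each, shown here with 11 bases on each side and the motif in capitals, read along the strand of the gene.
PLAUR: tcacaactccaTGAGTCAgggccgagcca
SPINT1: cccgacggcgcTGACTCAgtttcaccaga
The PLAUR stretch shown is at chr19:43670338-43670366 on the minus strand, and the motif in it begins 186 bases before the RefSeq start. The SPINT1 stretch shown is at chr15:40844031-40844059 on the plus strand, and the motif in it begins 6 bases before 1 of the 2 RefSeq starts. In GENCODE 29 the spans of PLAUR and SPINT1 begin farther upstream, and both stretches lie within an annotated exon and an annotated untranslated region. Both windows of PLAU and both of SERPINE2 were without a match, and 7.71% of all 35116 windows hold one. Sequence outside the windows was not searched for any motif. A site farther from a start, in PLAU or another gene, would therefore have been missed. A TEAD motif (GGAATG), the motif of the factors that YAP1 works with, was found in no window of the 4 genes and in 14.0% of all windows. A GC box (GGGCGG), which lies in 45.0% of all windows, was found in 1 of the 2 windows of PLAU, in both of SERPINE2 and in 1 of the 2 of SPINT1. In that window of PLAU the nearest one begins 40 bases before the RefSeq start, inside the span that GENCODE 29 gives the gene. It is shown with the 11 bases on each side, which hold another GC box, and both are in capitals. The whole stretch shown is at chr10:73911081-73911108 on the plus strand.
PLAU: GGGCGGcgccgGGGCGGgccctgatata
These matches describe letters in a window and were not tested for binding or use.

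The knockdown itself was seen with both hairpins. PCYT2 (ENSG00000185813) was at 11.6 and 13.8 FPKM with shNT, 7.11 and 7.36 FPKM with shPcyt2-1, and 6.71 and 6.18 FPKM with shPcyt2-2. The 4 values after knockdown were under both control values. The log2 fold change of FPKM + 1 against shNT was -0.73 with shPcyt2-1 (standard error 0.10, limma adjusted p = 0.00205) and -0.88 with shPcyt2-2 (standard error 0.10, limma adjusted p = 0.00261). The level of PCYT2 was not shown to differ between the hairpins (shPcyt2-2 minus shPcyt2-1 -0.15, 95% interval -0.37 to 0.080, limma adjusted p = 0.309). The libraries carried the epithelial keratins that the label of the line calls for, with KRT8 the most abundant of 10 colon epithelial markers at a mean of 3377 FPKM, while KRT20 was between 0 and 0.095 FPKM. The summed level of these 10 markers was 8213 and 8772 FPKM with shNT, 8433 and 8527 FPKM with shPcyt2-1, and 6260 and 6556 FPKM with shPcyt2-2. The sum is almost wholly KRT8, KRT18 and KRT19, and other markers on the list went otherwise. CDH1 was at 15.1 and 14.7 FPKM with shNT and 17.3 and 16.9 FPKM with shPcyt2-2, and CDX2 was at 15.5 and 16.9 FPKM with shNT and 10.01 and 9.88 FPKM with shPcyt2-1. The part of these differences in the results on the members was not tested.

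PLAU, on chromosome 10 (73909177 to 73917497, plus strand, GRCh38; ENSG00000122861), changed most among the 7. It was at 1.86 and 1.58 FPKM with shNT, 12.2 and 10.9 FPKM with shPcyt2-1, and 2.33 and 2.36 FPKM with shPcyt2-2. Both shPcyt2-1 libraries stood far above the other 4, and both shPcyt2-2 libraries stood just above the controls. The group means were 1.72 ± 0.199, 11.6 ± 0.874 and 2.35 ± 0.0231 FPKM (SD, n = 2 each), a ratio to shNT of 6.74 with shPcyt2-1 and 1.37 with shPcyt2-2. On the log2 scale of FPKM + 1, which understates the change of low genes, the differences were 2.21 (standard error 0.10) and 0.30 (standard error 0.10). Ordered by log2 fold change, PLAU ranked 6 of 12756 tested genes with shPcyt2-1 and 1485 with shPcyt2-2. In bulk RNA, more cells with the transcript and more transcript per cell cannot be told apart.

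PLAT, the other activator (chromosome 8, 42175233 to 42207724, minus strand; ENSG00000104368), was low throughout. It was at 0.223 and 0.405 FPKM with shNT, 0.598 and 0.670 FPKM with shPcyt2-1, and 0.329 and 0.262 FPKM with shPcyt2-2. The shPcyt2-1 libraries were the highest 2 of the 6, and the shPcyt2-2 values fell between those of the controls. Its mean of 0.414 FPKM left it below the limit for testing, so no fold change is given.

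PLAUR, the receptor of urokinase (chromosome 19, 43646095 to 43670547, minus strand; ENSG00000011422), was at like levels in the shNT and shPcyt2-1 libraries, unlike its ligand. It was at 33.1 and 27.4 FPKM with shNT, 27.6 and 31.4 FPKM with shPcyt2-1, and 33.7 and 41.7 FPKM with shPcyt2-2. The shPcyt2-1 libraries lay within the range of the controls, and the shPcyt2-2 libraries lay above it. The log2 fold change was -0.033 (standard error 0.12) with shPcyt2-1, and its sign was not stable, at 0.098 without shNT replicate 1, 0.055 without shPcyt2-1 replicate 1 and -0.16 without shNT replicate 2. With shPcyt2-2 it was 0.30, with a 95% interval of 0.033 to 0.58, and it did not pass the adjusted threshold (limma adjusted p = 0.123). It was 0.17 without shNT replicate 2 and 0.15 without shPcyt2-2 replicate 2. The receptor message exceeded that of its ligand 17.8-fold and 17.4-fold in the shNT libraries, 2.27-fold and 2.87-fold in the shPcyt2-1 libraries, and 14.4-fold and 17.6-fold in the shPcyt2-2 libraries.

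SERPINE2, also called protease nexin-1, inhibits urokinase, plasmin and thrombin (chromosome 2, 223975112 to 224039319, minus strand; ENSG00000135919). It was at 18.5 and 17.5 FPKM with shNT, 10.4 and 11.1 FPKM with shPcyt2-1, and 22.1 and 22.1 FPKM with shPcyt2-2. The 3 groups did not overlap, with the shPcyt2-1 libraries below the controls and the shPcyt2-2 libraries above them. The means were 18.0 ± 0.712, 10.7 ± 0.540 and 22.1 ± 0.0198 FPKM (SD, n = 2 each). The log2 fold change was -0.69 (standard error 0.076) with shPcyt2-1. With shPcyt2-2 SERPINE2 rose by 0.29 on the log2 scale (95% interval 0.11 to 0.46, limma adjusted p = 0.0422), but this call was lost under 9 of 14 alternative settings, and over all 14 the limma adjusted p ranged from 0.0379 to 0.161. Among the settings that ended it was leaving out any 1 of 5 libraries, those of shNT replicate 2 and of both hairpins.

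**Figure D1:**
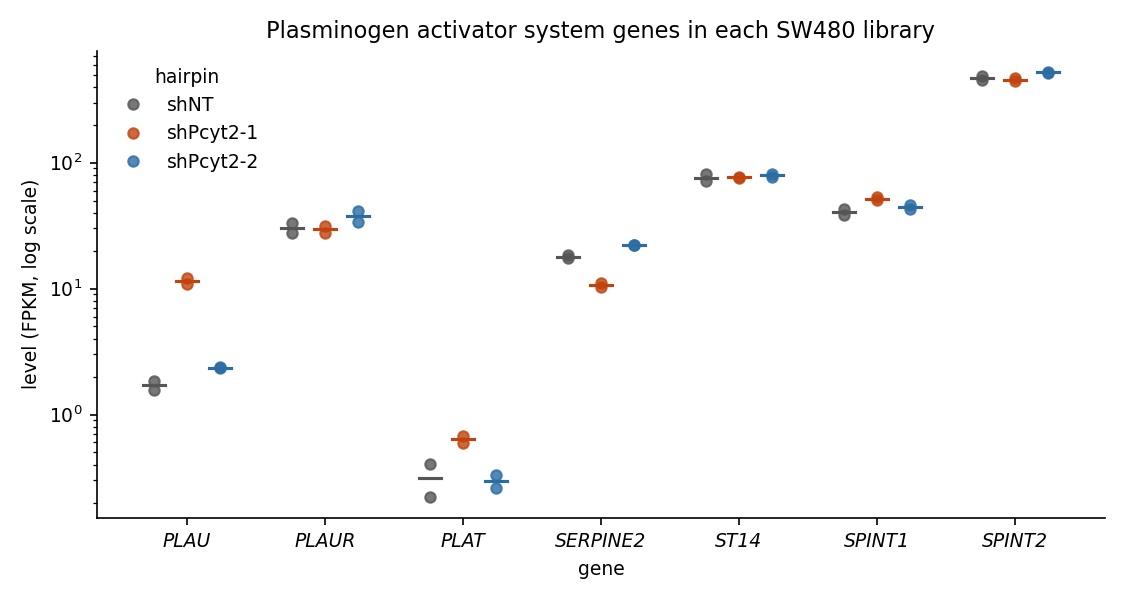
Level of each of the 7 genes in each of the 6 libraries (FPKM, log scale), with 1 point per library and a short line at the mean of the group. PLAU stood at 12.2 and 10.9 FPKM in the shPcyt2-1 libraries against 1.58 to 2.36 FPKM in the other 4, while SPINT2 stayed between 444.0 and 524.7 FPKM.

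ST14, which encodes matriptase (chromosome 11, 130159562 to 130210376, plus strand; ENSG00000149418), was nearly level across the groups. It was at 71.0 and 81.3 FPKM with shNT, 76.1 and 76.6 FPKM with shPcyt2-1, and 81.4 and 77.6 FPKM with shPcyt2-2. Both hairpins overlapped the controls. The log2 fold change was 0.0069 (standard error 0.074) with shPcyt2-1, which turned to -0.066 when the libraries were scaled by median ratios and to -0.089 without shNT replicate 1, and was 0.10 without shNT replicate 2. It was 0.064 with shPcyt2-2 (95% interval -0.10 to 0.23, limma adjusted p = 0.589). That value was 0.012 with median-ratio scaling and turned to -0.031 without shNT replicate 1.

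SPINT1, the inhibitor also called HAI-1 (chromosome 15, 40844018 to 40858207, plus strand; ENSG00000166145), was at 38.2 and 42.8 FPKM with shNT, 53.2 and 50.5 FPKM with shPcyt2-1, and 46.2 and 43.1 FPKM with shPcyt2-2. All knockdown libraries lay above both controls, those of shPcyt2-1 farther than those of shPcyt2-2. The log2 fold change was 0.35 (standard error 0.076) with shPcyt2-1. With shPcyt2-2 it was 0.14 (95% interval -0.032 to 0.31) and did not pass the threshold (limma adjusted p = 0.244). It was 0.060 without shNT replicate 1, 0.22 without shNT replicate 2 and 0.090 without shPcyt2-2 replicate 1. The antisense gene SPINT1-AS1 overlaps the 5′ end of SPINT1 and was listed at 5.60 and 4.77 FPKM with shNT, 4.19 and 5.24 FPKM with shPcyt2-1, and 2.80 and 2.15 FPKM with shPcyt2-2. Whether the counting used strand is not given in the sources used here, so reads of the overlap cannot be assigned to one gene. C10orf55, antisense over PLAU, was listed at no more than 0.151 FPKM in any library.

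SPINT2, or HAI-2, was the most abundant of the 7 in every library (chromosome 19, 38244035 to 38292614, plus strand; ENSG00000167642). It was at 449.6 and 486.6 FPKM with shNT, 444.0 and 470.5 FPKM with shPcyt2-1, and 517.6 and 524.7 FPKM with shPcyt2-2. The shPcyt2-2 libraries were the highest 2 of the 6, and those of shPcyt2-1 overlapped the controls. The log2 fold change was -0.033 (standard error 0.059) with shPcyt2-1, where it turned to 0.024 without shNT replicate 2 and 0.0084 without shPcyt2-1 replicate 1 and was -0.11 with median-ratio scaling. It was 0.16 with shPcyt2-2 (95% interval 0.023 to 0.29, limma adjusted p = 0.110), which did not pass the threshold and was 0.099 without shNT replicate 1. Relative to the level of ST14, that of SPINT2 stood at 5.83 to 6.76 in all 6 libraries and that of SPINT1 at 0.526 to 0.698, with the highest 2 of the latter in the shPcyt2-1 libraries.

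The order of levels in shNT was SPINT2, ST14, SPINT1, PLAUR, SERPINE2, PLAU and PLAT, and no neighbors overlapped. The same order was found with shPcyt2-2, again with no overlap between neighbors. With shPcyt2-1, PLAU (10.9 and 12.2 FPKM) and SERPINE2 (10.4 and 11.1 FPKM) had overlapping libraries, so their order there was not resolved.

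Counted over the set, the libraries of 3 of the 6 tested members did not overlap with the controls with shPcyt2-1, PLAU and SPINT1 above and SERPINE2 below, where 69.0% of all tested genes did not overlap. The rule for the set used this contrast, so nothing is read from this count. With shPcyt2-2, where 12.4% of all tested genes were called, 1 of the 5 members other than PLAU was called, SERPINE2. Of the same 5, 4 lay above both controls without overlap and none below, where 57.5% of all tested genes did not overlap. The median log2 fold change of these 5 with shPcyt2-2 was 0.16, against 0.044 over all 12756 tested genes. The median of the 5 was the value of SPINT2, which was 0.099 without shNT replicate 1 and 0.10 with median-ratio scaling. The median over all genes is not given for those settings.

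**Figure D2:**
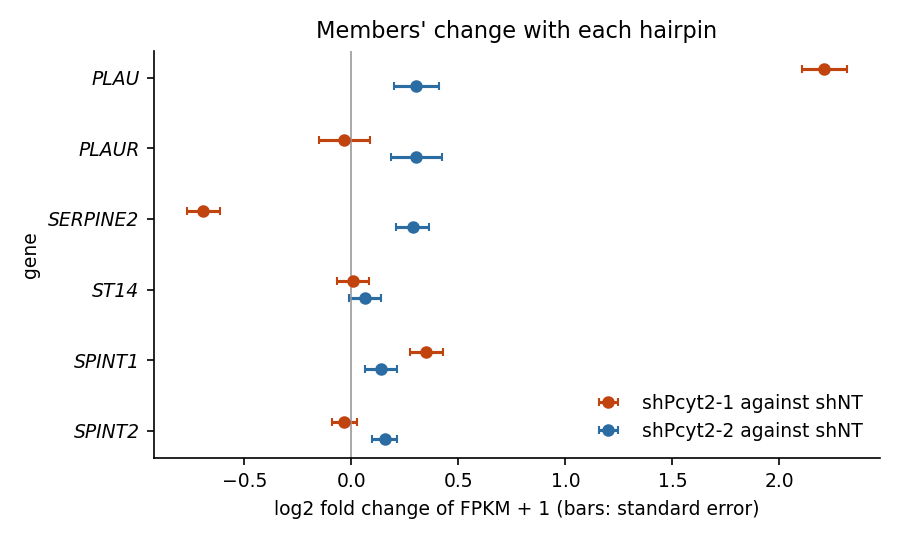
Log2 fold change of FPKM + 1 against shNT for the 6 tested members, with 1 point per hairpin and bars of 1 standard error. PLAU was at 2.21 with shPcyt2-1 and 0.30 with shPcyt2-2, and SERPINE2 lay on opposite sides of 0, at -0.69 and 0.29. Both hairpins share the shNT libraries.

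Set directly against each other, the hairpins separated all 6 tested members without overlap, where 67.3% of all tested genes were separated and 27.1% were called. The rule for the set used the shPcyt2-1 libraries, so nothing is read from this count either. Relative to shPcyt2-1, the shPcyt2-2 libraries were lower for PLAU (log2 difference -1.91, standard error 0.10) and SPINT1 (-0.21, standard error 0.076). They were higher for SERPINE2 (0.98, standard error 0.076), PLAUR (0.34, standard error 0.12), SPINT2 (0.19, standard error 0.059) and ST14 (0.057, standard error 0.074). The difference of PLAUR was 0.19 without shPcyt2-2 replicate 2, and that of ST14 was 0.023 or 0.092 when the first or the other library of shPcyt2-2 was left out. The differences of PLAU and SERPINE2 exceeded those of the other 4 members.

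The 5 tested genes whose profile over the 6 libraries lay nearest to that of PLAU were EREG, PRR20E, SPRR2D, SYP and VGF, by the Euclidean distance of log2(FPKM + 1) centered on shNT. EREG, the growth factor epiregulin, was nearest, at a distance of 0.183. It was at 11.4 and 8.85 FPKM with shNT, 53.2 and 52.1 FPKM with shPcyt2-1, and 12.4 and 12.9 FPKM with shPcyt2-2. As with PLAU, both shPcyt2-2 libraries of EREG lay just above the controls. PRR20E, which has near-identical copies that can share reads, followed at 0.417, and the distances of SPRR2D, SYP and VGF were 0.790, 0.910 and 0.990. SYP and VGF, which encode a synaptic vesicle protein and a neurosecretory protein, had means below shNT with shPcyt2-2. These 5 were chosen by their values and are a description.

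**Figure D3:**
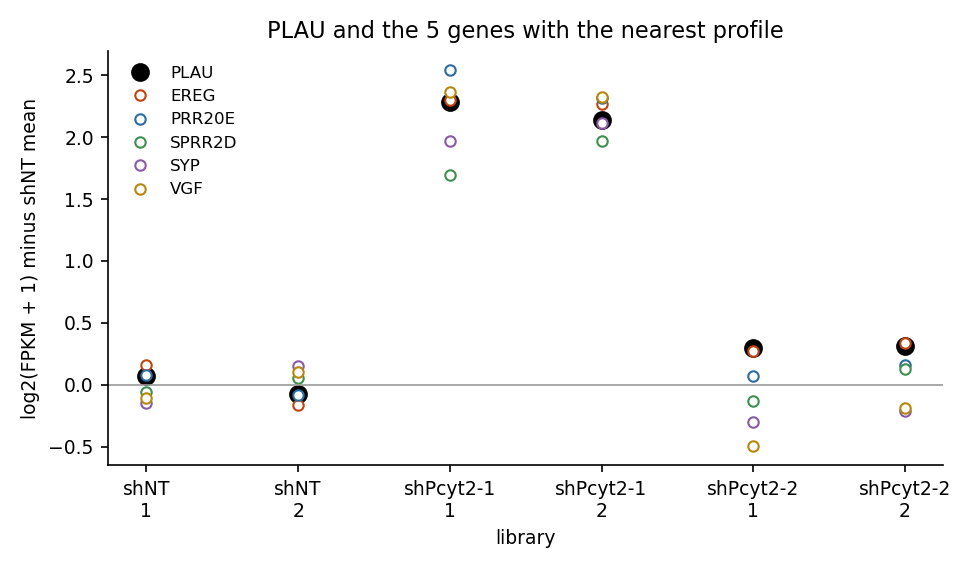
Log2(FPKM + 1) minus the mean of the shNT libraries in each of the 6 libraries, for PLAU (filled) and the 5 genes nearest to it (open). All 6 genes were high in both shPcyt2-1 libraries, and EREG lay closest to PLAU, at a distance of 0.183.

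Around the 7 genes, 56 further genes of the system were listed by role, of which 52 were in the tables and 44 were tested. With shPcyt2-1, 10 of the 44 rose (16.5% of all tested genes rose) and 14 fell (10.1% of all tested genes fell). Scaled by median ratios, the split was 6 higher and 17 lower. Over all 12756 tested genes it was then 1475 higher and 1714 lower, against 2109 and 1291 as deposited. With shPcyt2-2, 4 rose (7.69% of all tested genes rose) and 2 fell (4.74% of all tested genes fell). The median log2 fold change of the 44 was -0.011 with shPcyt2-1 and 0.029 with shPcyt2-2. The comparisons share their controls, so the values of each are given side by side. Of the 24 calls with shPcyt2-1, 13 held under all 14 alternative settings, and of the 6 with shPcyt2-2 only that of ITGA5 did.

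Among 7 tested inhibitors of the activators and of plasmin, 2 fell and 1 rose with shPcyt2-1, and none was called with shPcyt2-2. Of all tested genes, 26.7% were called with shPcyt2-1 and 12.4% with shPcyt2-2, shares that also stand behind each count by role that follows. SERPINB8, an intracellular serpin, was at 3.79 and 3.46 FPKM with shNT, 5.94 and 6.74 FPKM with shPcyt2-1, and 3.40 and 3.54 FPKM with shPcyt2-2. It rose by 0.66 on the log2 scale with shPcyt2-1 (standard error 0.10, limma adjusted p = 0.00308), and its shPcyt2-2 libraries overlapped the controls. SERPINA1, or alpha-1 antitrypsin, was at 3.57 and 3.34 FPKM with shNT, 1.79 and 1.73 FPKM with shPcyt2-1, and 2.40 and 2.93 FPKM with shPcyt2-2. It fell by 0.69 with shPcyt2-1 (standard error 0.11, limma adjusted p = 0.00368). SERPINB2, another inhibitor of urokinase, was at a mean of 0.0836 FPKM with shNT and was not tested.

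Plasminogen itself (PLG) was listed in none of the libraries. Of the 4 tested proteins that bind it at the cell surface, 3 rose with shPcyt2-1 (16.5% of all tested genes), and none was called with shPcyt2-2. ANXA2, the annexin that anchors S100A10 at the membrane, rose by 0.34 on the log2 scale (limma adjusted p = 0.00468), from 513 and 482 FPKM to 620 and 636 FPKM. Its partner S100A10 (0.21, limma adjusted p = 0.0447) and PLGRKT, a plasminogen receptor (0.39, limma adjusted p = 0.0432), stood close to the threshold. The call of S100A10 held under 8 of 14 alternative settings and that of PLGRKT under 7. PLGRKT was at 0.24 on the log2 scale without shPcyt2-1 replicate 2. Scaled by median ratios, none of these 3 calls held (limma adjusted p = 0.0616 for ANXA2, 0.322 for S100A10 and 0.0711 for PLGRKT).

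Among 11 tested partners and clearance receptors of PLAUR, 2 rose and 5 fell with shPcyt2-1 (16.5% and 10.1% of all tested genes). ITGB1, an integrin chain with which PLAUR associates, rose by 0.82 (limma adjusted p = 0.000578), from 67.4 and 59.8 FPKM to 114 and 112 FPKM. MRC2, the collagen receptor uPARAP that binds PLAUR, was the lowest, at -1.28 (limma adjusted p = 0.000312), from 3.33 and 3.86 FPKM to 0.848 and 0.928 FPKM. With shPcyt2-2 the single call was ITGA5, the fibronectin receptor chain, which rose by 0.67 (limma adjusted p = 0.00199) from 30.8 and 30.9 FPKM to 47.4 and 51.8 FPKM. The same gene fell by 0.22 with shPcyt2-1 (limma adjusted p = 0.0411), a call lost under 6 of 14 settings.

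Among 10 tested membrane serine proteases and substrates of matriptase, TMPRSS4 fell with both hairpins, by 0.84 with shPcyt2-1 (limma adjusted p = 0.00203) and by 0.62 with shPcyt2-2 (limma adjusted p = 0.0138). It was at 2.57 and 2.62 FPKM with shNT, 0.897 and 1.12 FPKM with shPcyt2-1, and 1.19 and 1.49 FPKM with shPcyt2-2. Over the 14 alternative settings its log2 fold change with shPcyt2-1 ranged from -1.29 to -0.76. HPN, the membrane protease hepsin, fell by 0.73 with shPcyt2-1 (limma adjusted p = 0.00119) and rose by 0.43 with shPcyt2-2 (limma adjusted p = 0.016). F2RL1, the protease-activated receptor PAR2, likewise fell by 0.31 (limma adjusted p = 0.0262) and rose by 0.35 (limma adjusted p = 0.0318). TMPRSS3 rose with shPcyt2-2 (0.44, limma adjusted p = 0.0112), and MET, the receptor for hepatocyte growth factor, rose with shPcyt2-1 (0.43, limma adjusted p = 0.0127). Without shPcyt2-2 replicate 1, none of the 4 calls with shPcyt2-2 held, and the limma adjusted p over the 14 settings reached 0.0941 for TMPRSS4, 0.0956 for HPN, 0.148 for F2RL1 and 0.0655 for TMPRSS3. The call of MET was lost without shPcyt2-1 replicate 1 (limma adjusted p = 0.0779) and with no expression limit (0.0523), and that of F2RL1 with shPcyt2-1 without any 1 of the shNT or shPcyt2-1 libraries (up to 0.17). The growth factor itself, HGF, was listed in none of the libraries.

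All 12 AP-1 and ETS factors were tested, of which 3 rose and 4 fell with shPcyt2-1 (16.5% and 10.1% of all tested genes) and ETV4 alone was called with shPcyt2-2, lower. FOSL1, an AP-1 subunit, rose by 0.51 with shPcyt2-1 (limma adjusted p = 0.00269), from 48.3 and 50.7 FPKM to 68.3 and 73.1 FPKM. ETS1 rose by 0.55 (limma adjusted p = 0.00389), and JUND, another AP-1 subunit, fell by 0.67 (limma adjusted p = 0.00183). ELF3, an epithelial ETS factor, fell by 0.60 (limma adjusted p = 0.00264), from 24.3 and 26.4 FPKM to 16.5 and 16.4 FPKM. ETV4 fell by 0.34 with shPcyt2-1 (limma adjusted p = 0.00937) and by 0.45 with shPcyt2-2 (limma adjusted p = 0.00788), and these calls were lost without replicate 1 of the hairpin concerned (limma adjusted p = 0.0584 and 0.0832), the latter also with no expression limit (0.064).

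**Figure D4:**
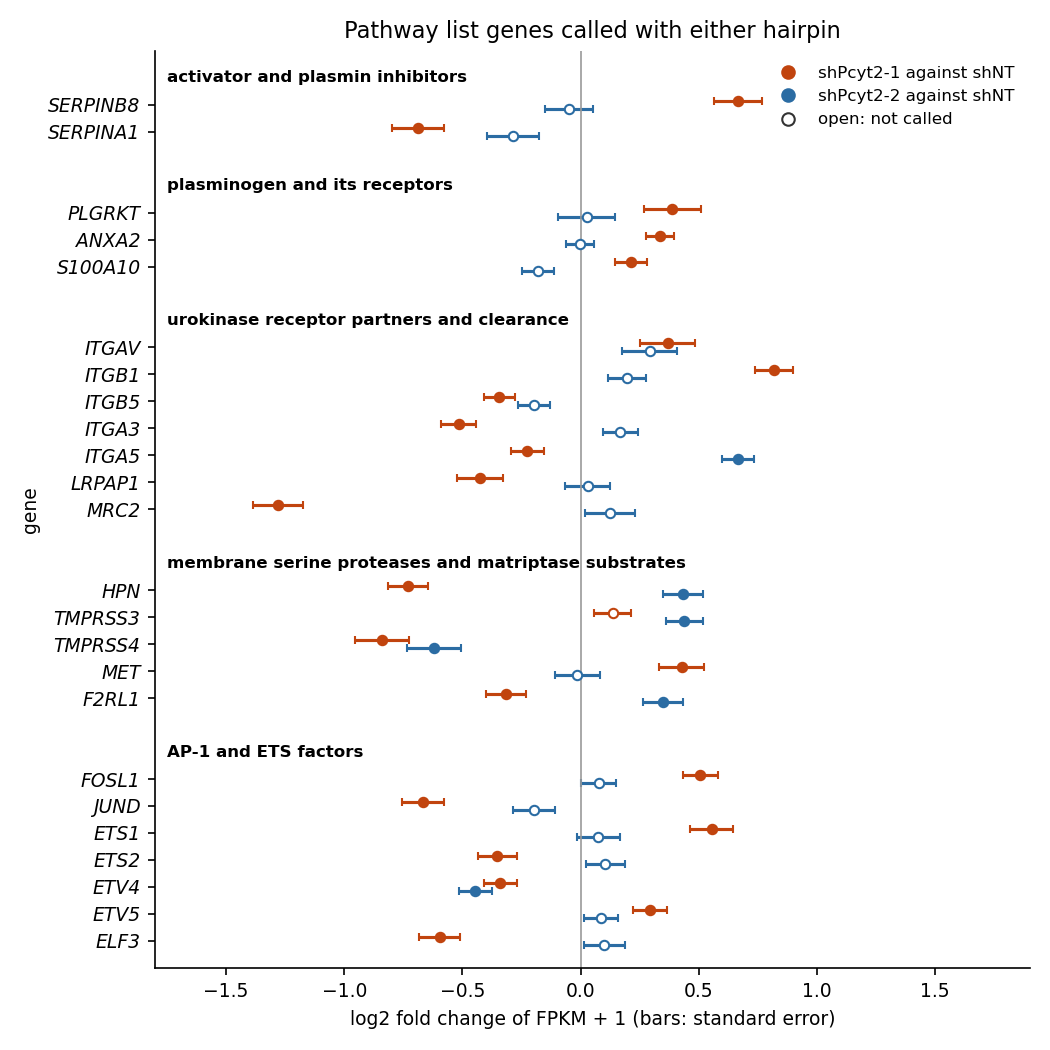
Log2 fold change of FPKM + 1 against shNT, with bars of 1 standard error, for pathway list genes called with either hairpin, grouped by role (filled points passed the adjusted threshold, open points did not). MRC2 lay at -1.28 and TMPRSS4 at -0.84 with shPcyt2-1, and ITGA5, HPN and F2RL1 lay on opposite sides of 0 with the 2 hairpins.

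Markers of other cell types were listed at these levels. Of 8 fibroblast markers, 6 were listed, COL3A1 and FAP were not, and their summed level was 2.28 to 4.12 FPKM, with LUM highest by the mean over the 6 libraries and COL1A1 above it in the shNT and shPcyt2-2 libraries. Of 8 leukocyte markers, 6 were listed and PTPRC and ITGAM were not, with a sum of 19.2 to 25.6 FPKM that was mostly CD68 (mean 19.5 FPKM), while PLAU and PLAT lay below CD68 in every library. The 6 endothelial markers summed to 0.791 to 1.38 FPKM, with CDH5 highest by the mean over the 6 libraries and CLDN5 above it in the shNT libraries. The fibroblast markers did not move together. LUM was at 0.789 and 0.863 FPKM with shNT, 2.17 and 2.24 FPKM with shPcyt2-1, and 1.36 and 1.09 FPKM with shPcyt2-2, highest where PLAU was. PDGFRB, at 0.364 and 0.507 FPKM with shNT, was lowest there (0.225 and 0.309 FPKM) and highest with shPcyt2-2 (0.795 and 0.739 FPKM), and COL1A1 was highest with shPcyt2-2 (1.53 and 1.68 FPKM). The part of these markers in the results was not tested.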

How the data were processed

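The authors deposited 1 table per library of normalized values by Ensembl identifier, read here as FPKM from the values, since they are not whole numbers. TPM over part of the genes cannot be told apart. Only genes above 0 are listed. The paper's methods name a count test, for which no counts were at hand, so limma was used. The labels name 2 library kits without assigning them, the submitters' processing notes name GRCm38, mm10 and GRCh38 without a role, and the aligner, counting and annotation are not given in the sources used here. Repeated identifiers (115) were summed and 999 groups with identical values in at least 3 libraries were merged. Names and positions came from GENCODE 29 (GRCh38), which matched 90.6% of 21539 identifiers. Genes that averaged 0.5 or more over the libraries were tested on log2(FPKM + 1) with limma 3.58.1 in R 4.3.3 (3 groups, mean-variance trend, Benjamini-Hochberg over 12756 genes, two-sided), and a gene was called at an adjusted p under 0.05. The script was tested on simulated data.

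The members and lists were chosen with earlier results of these data known. Named are the 7 members, PCYT2, pathway list genes that were called (those with the largest changes first), listed genes whose role asks for it, and the 5 genes nearest to PLAU. The cell type markers named, C10orf55 and SPINT1-AS1 fall outside this rule, and their values were known when they were chosen. Start-site windows came from RefSeq. Alternatives covered the pseudocount (0.1), the expression limit, scaling, the variance trend, a replicate block, repeated rows, the libraries fitted and leaving out each library. One gene of the pathway lists is included in their counts and is not reported here.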

Additional observations from a re-analysis of the deposited data

Results flagged for a closer look

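The difference between the hairpins was called for 22 of the 44 tested pathway list genes (27.1% of all tested genes). Given here are the members and called list genes for which both libraries of one hairpin lay above and both of the other below the 2 controls, whether or not each hairpin alone was called against shNT. For SERPINE2, every shPcyt2-1 library was below and every shPcyt2-2 library above both controls, with a log2 difference (shPcyt2-2 minus shPcyt2-1) of 0.98, and this difference was not tested because the set was chosen on these libraries. Of the pathway list genes with libraries so placed, the difference passed the threshold in limma for S100A10 (-0.39, adjusted p = 0.00349), ITGA3 (0.68, adjusted p = 0.000459), ITGA5 (0.89, adjusted p = 9.17e-05), VLDLR (-0.33, adjusted p = 0.0485), MRC2 (1.41, adjusted p = 7.94e-05), HPN (1.17, adjusted p = 7.09e-05), F2RL1 (0.66, adjusted p = 0.000881) and ETS2 (0.46, adjusted p = 0.00437). The call for VLDLR, a clearance receptor, held under 4 of 13 alternative settings, and its difference was -0.60 with a pseudocount of 0.1. The calls for the other 7 held under all 13. Against shNT, VLDLR was called with neither hairpin, and S100A10, ITGA3, MRC2 and ETS2 were called with shPcyt2-1 and not with shPcyt2-2.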

How the results depend on the processing

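PLAU with shPcyt2-1 kept its direction under all 14 alternatives, at 2.69 with a pseudocount of 0.1 and 2.14 to 2.29 with each library left out. The set was chosen by this rise in the same libraries, so these values are a description and no support for it. SERPINE2 with shPcyt2-2 kept its direction and lost its call with no expression limit (0.29, adjusted p = 0.0814), median-ratio scaling (0.24, 0.0835), no variance trend (0.29, 0.0671) and only the 2 groups compared (0.29, 0.062), and with libraries left out it was 0.25 to 0.32. ST14 with shPcyt2-2 reached -0.031 to 0.16 with libraries left out, negative without shNT replicate 1. Genes called numbered 3400 with shPcyt2-1, 1831 with no expression limit and 1160 to 3355 with libraries left out. They numbered 1585 with shPcyt2-2, 124 with no expression limit, 1027 with no variance trend and 125 to 1892 with libraries left out, the lowest without shPcyt2-2 replicate 1. Between the hairpins they numbered 3463, and 1674 to 3783 with libraries left out. Pathway list genes called numbered 24 with shPcyt2-1 (15 to 28 with libraries left out) and 6 with shPcyt2-2 (1 with no expression limit, 1 to 10 with libraries left out). Median-ratio scaling moved the split of calls from 2109 higher and 1291 lower to 1475 and 1714 with shPcyt2-1, and from 981 and 604 to 760 and 848 with shPcyt2-2. Replicate numbers were not shown to pair the libraries (correlation of deviations 0.003, 0.062 and 0.191), and with the replicate block 2029 genes were called with shPcyt2-2. The causes were not tested. No count test was run, as the values are not counts.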
